A study of Mus musculus with 9 samples.

Results

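The genes described here make prostaglandins, break them down or receive their signal. They are 7 genes named as a list, Ptgs1, Ptgs2, Ptges, Ptgis, Hpgd, Ptger2 and Ptger4, and all 7 were found among the 26214 genes of the deposited table. RNA was sequenced 1 day after an injection into the quadriceps of adult male C57Bl/6 mice, in which glycerol damages muscle fibers and NaCl serves as the non-injured control. Adipose stromal cells (ASCs) came from subcutaneous adipose tissue after NaCl (3 libraries), fibro-adipogenic progenitors (FAPs) from quadriceps after NaCl (2 libraries), and injured FAPs from quadriceps after glycerol (3 libraries). A library of CD31+CD45+ cells from quadriceps after glycerol has no replicate and entered no test. According to the study's methods, each cell type was sequenced from pooled cells of several animals, so the spread between libraries may be largely technical. The methods describe triplicates, but the table holds values for 2 FAP libraries, on which each comparison with FAPs rests.

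Between 24052508 and 27481573 reads fell on genes in the 8 libraries of ASCs, FAPs and injured FAPs, and 13091077 in the CD31+CD45+ library. All levels below are normalized reads, that is, reads divided by a size factor per library. In these units 3 reads are worth 2.29 to 4.71, depending on the library. Differences are log2 fold changes from limma with Benjamini-Hochberg adjusted p-values over 13601 genes, with a 95% confidence interval (CI). Genes passed where the adjusted p was below 0.05 and the log2 ratio exceeded 0.58 in size.

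Prostaglandins are short-lived lipid signals made from arachidonic acid, which phospholipases free from membranes. The cyclooxygenases convert it to prostaglandin H2, and terminal synthases turn this intermediate into prostaglandin E2, prostacyclin and others, which act on G protein-coupled receptors of the producing cell and its neighbors. In muscle, prostaglandins are known for their part in inflammation and in the regeneration that follows injury.

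The libraries were first checked against markers of the sorted cells. All 8 mesenchymal markers, among them Pdgfra, Dcn and Col1a1, were above 0 in every library, and their summed level was 439365 to 2098328 in the 8 libraries against 58736 in CD31+CD45+ cells. The 12 endothelial markers summed to 7364, 5926 and 7761 in ASCs, to 7209 and 4913 in FAPs and to 2353, 2484 and 1972 in injured FAPs, compared with 377380 in CD31+CD45+ cells. Tek was the most abundant of them in ASCs and FAPs and Cdh5 in injured FAPs, whereas Vwf, Emcn, Cldn5 and Plvap were at 0 in both FAP libraries. Tek alone measured 5986, 4841 and 6700 in ASCs. The medians of the 12 endothelial markers had another order, with ASCs lowest. They were 56.65, 39.6 and 30.8 in ASCs, 241.5 and 170 in FAPs and 88.3, 107 and 83.1 in injured FAPs. The 12 leukocyte markers summed to 491, 413 and 387 in ASCs, to 260 and 485 in FAPs and to 745, 3457 and 642 in injured FAPs. Injured FAP replicate 2 thus stood above the other 2 injured FAP libraries, with Lyz2 as its most abundant leukocyte marker (725, compared with 142 and 109), and 10 of the 12, including Ptprc, Lyz2 and Cd74, were at 0 in each FAP library. The leukocyte sums of the FAP libraries were mostly Cd68 (254 and 477).

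The cyclooxygenases come first in the pathway. Ptgs2 (chr1:150100031-150108227, plus strand, GRCm38), the inducible cyclooxygenase, measured 55362, 41894 and 59969 normalized reads in ASCs, 4592 and 3379 in FAPs, 30673, 27318 and 36900 in injured FAPs, and 210 in CD31+CD45+ cells. The groups did not overlap: FAPs were lowest of the 3, injured FAPs lay between, and ASCs were highest. Injured FAPs (31630 ± 4862, SD, n = 3) were above FAPs (3986 ± 857, SD, n = 2) by a log2 fold change of 2.99 (CI 2.56 to 3.43, adjusted p = 1.01e-06), which is 7.97-fold. ASCs (52408 ± 9393, SD, n = 3) were above FAPs by 3.72 (CI 3.29 to 4.15, adjusted p = 2.58e-07). Ptgs2 ranked between 40 and 82 among all genes in each ASC and injured FAP library, and 709 and 1047 in the FAP libraries.

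Between injured FAPs and ASCs, Ptgs2 was lower in injured FAPs by a log2 fold change of -0.72 (CI -1.11 to -0.34, adjusted p = 0.00392). This difference depends on the scaling: it was 0.31 after quantile normalization (adjusted p = 0.142) and -0.02 after scaling to a common library total (adjusted p = 0.885), within a range of 0.000157 to 0.885 for the adjusted p over all alternatives. As shares of all normalized reads of a library, Ptgs2 took 0.153%, 0.135% and 0.174% in ASCs and 0.145%, 0.132% and 0.179% in injured FAPs. On this scale ASCs and injured FAPs overlapped, while FAPs stood apart at 0.0201% and 0.0149%. In bulk samples such as these, fewer cells with a transcript and less of it per cell cannot be told apart.

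Ptgs1 (chr2:36230426-36252272, plus strand), the cyclooxygenase that many cells express constantly, measured 792, 534 and 739 in ASCs, 542 and 668 in FAPs, 222, 175 and 215 in injured FAPs, and 2530 in CD31+CD45+ cells. ASCs and FAPs overlapped, and all 3 injured FAP libraries were below them. Ptgs1 fell in injured FAPs (204 ± 25.3, SD, n = 3) against FAPs (605 ± 89.1, SD, n = 2) by a log2 fold change of -1.56 (CI -1.99 to -1.14, adjusted p = 5.08e-05), and against ASCs (688 ± 136, SD, n = 3) by -1.74 (CI -2.11 to -1.36, adjusted p = 8.75e-06). ASCs differed from FAPs by 0.17 (CI -0.25 to 0.60, adjusted p = 0.454), with the sign turned at a common 75th percentile (-0.04) and at a common library total (-0.39). In FAPs, Ptgs1 was at 21.4% and 26.4% of its CD31+CD45+ level. The summed endothelial markers were at 1.91% and 1.30% of theirs, and the smooth muscle and pericyte markers at 26.9% and 23.6%. Muscle fiber markers were at 25.2% and 29.8%, platelet markers at 60.2% and 81.3%, and satellite cell markers at 13.0% and 26.2%. The platelet sums were mostly Itga2b (298 and 384), and Pf4, Gp6 and Ppbp were at 0 in both FAP libraries. The median platelet marker was at 0.0% and 5.995% of its CD31+CD45+ level. In ASCs, Ptgs1 was at 31.3%, 21.1% and 29.2% of its CD31+CD45+ level. Smooth muscle and pericyte markers were there at 7.47%, 4.98% and 6.31%, and muscle fiber markers at 5.49%, 3.77% and 5.06%. Platelet markers were at 94.4%, 122% and 99.5% in ASCs, again mostly Itga2b, with the median marker at 0.571%, 3.007% and 0.272%. Whether other cells contribute to Ptgs1 was not tested.

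**Figure D1:**
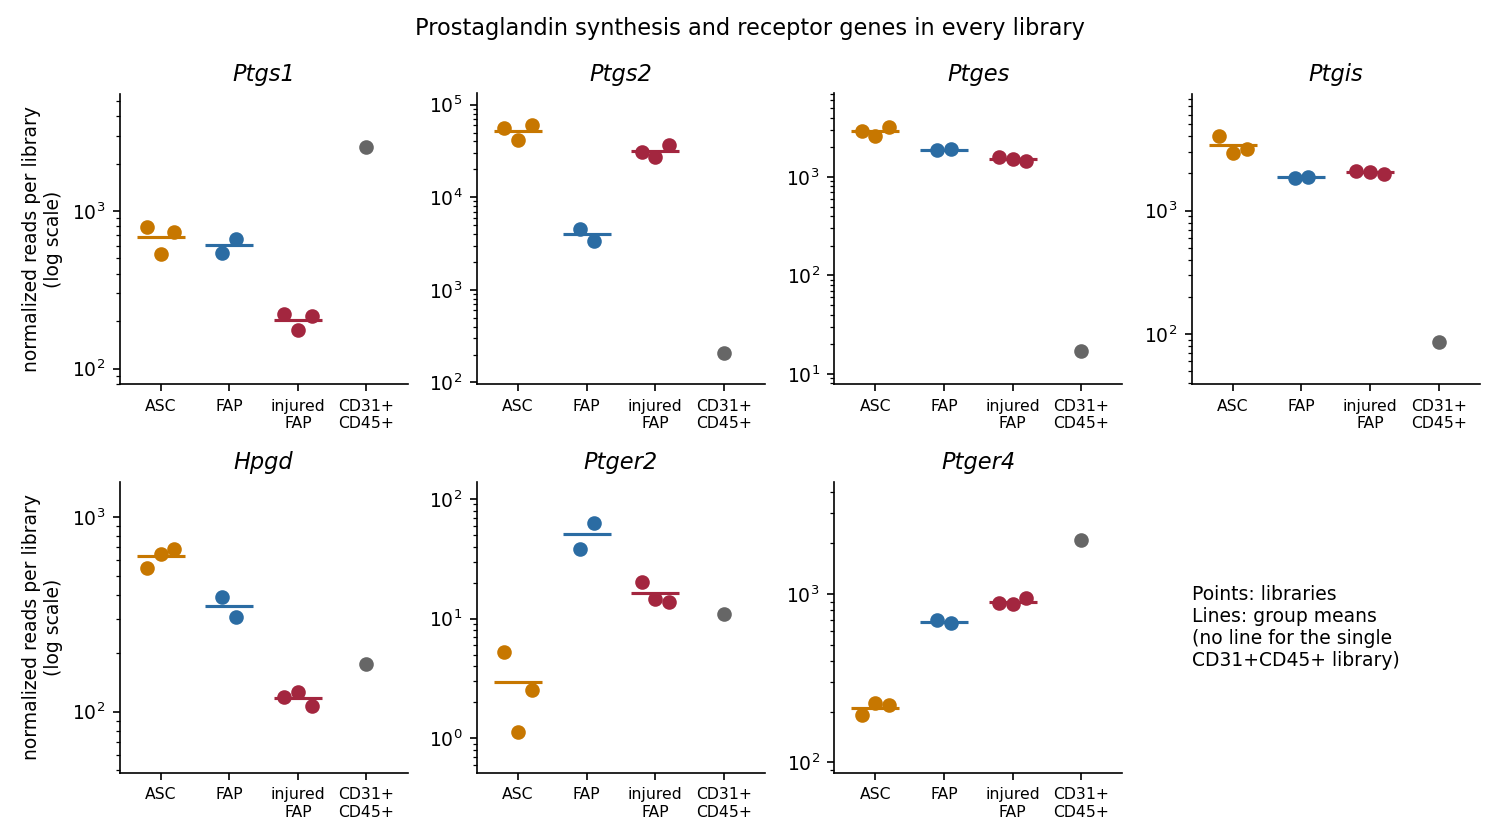
Normalized reads of the 7 genes in each library, on log axes that differ between panels; points are libraries and lines are means of the groups with replicates. Ptgs2 was at most 4592 in FAPs and at least 27318 in every ASC and injured FAP library, while Ptger4 had the opposite order between ASCs and the FAP groups.

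The promoter windows held by RefSeq (GRCm38.p6, from 250 bases before to 50 after the start) covered 6 of the 7 genes, all except Ptgis. Stretches of Ptgs2, Ptges and Hpgd are shown as examples, chosen after their values were seen. Capitals mark the motif matches.
Ptgs2, C/EBP pattern (chr1:150099951-150099980, plus strand): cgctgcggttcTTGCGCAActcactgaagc
Ptgs2, CRE half-site and E-box (chr1:150100034-150100062, plus strand): gtcaccactaCGTCACGTGgagtccgctt
Ptges, Egr1 core (chr2:30903329-30903358, minus strand): atcaggGTGGGCGgggaGTGGGCGggggtg
Hpgd, TATAAA (chr8:56294545-56294572, plus strand): acggagtgggcTATAAAagctgctgcgg

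In Ptgs2 the C/EBP pattern TTGCNNAA begins 69 bases before the start, and a reversed CRE half-site TGACG begins at base 14 after it and shares 2 bases with an E-box CACGTG. The window of Ptges holds the Egr1 core GTGGGCG in 2 places, beginning 55 and 44 bases before the RefSeq start, which lies 26566 bases inside the GENCODE span given below. In Hpgd, TATAAA begins at base 5 after the RefSeq start, which lies upstream of the GENCODE start at 56294585, and GTGGGCG occurs on the reverse strand on either side. Ptger2 has the C/EBP pattern at base 40 after its RefSeq start at 44988111, upstream of the GENCODE start at 44988195, whereas Ptgs1 and Ptger4 hold none of the motifs searched. On both strands of 32851 windows of 300 bases, TTGCNNAA occurs in 10.8%, TGACG in 20.8%, CACGTG in 7.15%, GTGGGCG in 7.97% and TATAAA in 13.6%. The AP-1 site TGANTCA (7.81% of windows) and the NF-kB consensus (8.46%) had no match in the 6 genes. A match describes letters in a window, not a site in use.

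Terminal synthases act downstream of the cyclooxygenases. Ptges (chr2:30889471-30929863, minus strand), the inducible microsomal prostaglandin E synthase, measured 2959, 2631 and 3195 in ASCs, 1869 and 1920 in FAPs, and 1608, 1525 and 1446 in injured FAPs. In normalized reads the groups did not overlap, with ASCs highest and injured FAPs lowest. As shares of a library, ASCs and FAPs overlapped, with FAP replicate 2 (0.008446%) above ASC replicate 1 (0.008173%). Injured FAPs differed from FAPs by a log2 fold change of -0.31 (CI -0.55 to -0.08, adjusted p = 0.0238), which did not reach the fold threshold. ASCs were above FAPs by 0.62 (CI 0.39 to 0.86, adjusted p = 0.000573), and injured FAPs below ASCs by -0.94 (CI -1.15 to -0.73, adjusted p = 1.1e-05). In CD31+CD45+ cells the level was 17.3, the lowest of the 9 libraries.

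Ptgis (chr2:167191805-167240604, minus strand) encodes prostacyclin synthase and measured 4040, 2931 and 3159 in ASCs, 1844 and 1888 in FAPs, 2083, 2064 and 1972 in injured FAPs, and 86.3 in CD31+CD45+ cells. In normalized reads ASCs were above both FAP groups, which lay close together. As shares of a library, ASCs and injured FAPs overlapped, with injured FAP replicate 2 (0.009974%) above ASC replicate 3 (0.009182%). The difference between injured FAPs and FAPs was 0.13 (CI -0.16 to 0.42, adjusted p = 0.402), so a change beyond the fold threshold of 0.58 lies outside its interval. ASCs were above FAPs by 0.84 (CI 0.55 to 1.13, adjusted p = 0.000303), and injured FAPs were below ASCs by -0.71 (CI -0.97 to -0.46, adjusted p = 0.000321).

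Hpgd (chr8:56294585-56321043, plus strand) encodes the dehydrogenase that starts the breakdown of prostaglandins. Its level was 547, 649 and 691 in ASCs, 390 and 308 in FAPs, 119, 126 and 107 in injured FAPs, and 176 in CD31+CD45+ cells. In normalized reads the 3 groups did not overlap, and injured FAPs were the lowest. As shares of a library, ASCs and FAPs overlapped, with ASC replicate 1 (0.00151%) below FAP replicate 1 (0.001705%). Hpgd fell in injured FAPs (118 ± 9.90, SD, n = 3) against FAPs (349 ± 58.1, SD, n = 2) by a log2 fold change of -1.56 (CI -1.92 to -1.19, adjusted p = 1.8e-05) and against ASCs (629 ± 74.0, SD, n = 3) by -2.41 (CI -2.73 to -2.08, adjusted p = 3.24e-07). ASCs exceeded FAPs by 0.85 (CI 0.49 to 1.21, adjusted p = 0.0012).

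The receptors Ptger2 and Ptger4 (EP2 and EP4) bind prostaglandin E2 and raise cAMP. Ptger4 (chr15:5206661-5244187, minus strand) measured 191, 224 and 220 in ASCs, 697 and 669 in FAPs, 877, 870 and 947 in injured FAPs, and 2092 in CD31+CD45+ cells. Here ASCs were the lowest group and injured FAPs the highest, with no overlap. Injured FAPs (898 ± 42.6, SD, n = 3) differed from FAPs (683 ± 19.9, SD, n = 2) by a log2 fold change of 0.39 (CI 0.13 to 0.66, adjusted p = 0.0139), short of the fold threshold. ASCs (212 ± 18.0, SD, n = 3) were lower than FAPs by -1.69 (CI -1.95 to -1.42, adjusted p = 1.62e-06), and injured FAPs were above ASCs by 2.08 (CI 1.85 to 2.32, adjusted p = 1.15e-07). A processed pseudogene on the opposite strand overlaps 15.3% of the Ptger4 exons, and the strand setting of the counting is not stated.

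Ptger2 (chr14:44988195-45003820, plus strand) was near the limit of the depth. Its level was 5.27, 1.13 and 2.51 in ASCs, where it rested on 4, 1 and 2 reads, 38.0 and 63.0 in FAPs, 20.4, 14.7 and 13.7 in injured FAPs, and 10.99 in CD31+CD45+ cells. FAPs were highest and ASCs lowest, without overlap. From summed reads, FAPs held 17.6 times the ASC level (95% counting interval 8.27 to 44.9) and injured FAPs 5.66 times (2.59 to 14.7); these intervals cover counting error only. Injured FAPs were below FAPs by a log2 fold change of -1.55 (CI -2.72 to -0.39, adjusted p = 0.0236). Without FAP replicate 2 this was -1.20 (adjusted p = 0.178), without injured FAP replicate 2 it was -1.49 (adjusted p = 0.0603), and without injured FAP replicate 3 it was -1.45 (adjusted p = 0.0712). It was -1.08 after quantile normalization (adjusted p = 0.111) and -1.49 with the replicate block (adjusted p = 0.0556), in a range of 0.00197 to 0.178 over all alternatives. The summed level of the 8 smooth muscle and pericyte markers had the same order of groups, with 5463, 3638 and 4612 in ASCs, 19639 and 17254 in FAPs and 9451, 9076 and 9627 in injured FAPs. Not each of them did: the mean of Cspg4 was highest in injured FAPs (4314, compared with 3921 in FAPs), Abcc9 was highest in ASCs (3162), and Kcnj8 was higher in ASCs (163) than in injured FAPs (85.1). Rgs5 was the most abundant in FAPs, none of the 8 was at 0, and their part in the Ptger2 levels was not tested. Nor was that of muscle fiber markers (summed level 157, 108 and 144 in ASCs, 718 and 851 in FAPs, 248.7, 243 and 196 in injured FAPs) or satellite cell markers (5.27, 5.66 and 2.51, then 73.2 and 148, then 52.6, 39.5 and 35.9). The sums of these lists, unlike some of their genes, have the order of Ptger2: Myod1 had a higher mean in injured FAPs (20.2) than in FAPs (12.3), and Tnnt3 was higher in ASCs (118) than in injured FAPs (78.2).

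The comparison of injured FAPs with FAPs sets cells sorted alike from damaged and non-injured muscle side by side. Ptgs2 was the 1 gene of the 7 that passed as higher, and Ptgs1, Hpgd and Ptger2 passed as lower, while Ptger4 (0.39) and Ptges (-0.31) met the adjusted p but not the fold threshold. Over the alternatives, the adjusted p ran from 0.00144 to 0.0867 for Ptger4 and from 0.0017 to 0.131 for Ptges. Without FAP replicate 2 it was 0.0867 and 0.119, and without injured FAP replicate 3 it was 0.0544 and 0.079. Without FAP replicate 1 it was 0.0506 for Ptger4 and 0.0789 for Ptges, and without injured FAP replicate 2 it was 0.0617 for Ptges. Thus 4 of 7 passed, beside 52.6% of all genes tested, with 1 of 7 higher (24.9% of all genes) and 3 of 7 lower (27.7%). As a count this is near the background, and the size of the Ptgs2 change is what stands out within the list.

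The comparison of ASCs with FAPs concerns the non-injured cells of both tissues. By the study's methods, adipose tissue and muscle were digested with different enzymes. Tissue and isolation therefore cannot be told apart where ASCs are compared with FAPs or injured FAPs. Ptgs2, Ptges, Ptgis and Hpgd were higher in ASCs and both receptors were lower. In all 6 of 7 passed (47.2% of all genes), 4 of 7 higher (23.4%) and 2 of 7 lower (23.8%). The values of ASCs sum to more than those of FAPs, and scaling to a common library total, an alternative chosen after seeing the data, moved the median of all genes by -0.56 (-0.21 at a common 75th percentile). Under it Ptges (0.06), Ptgis (0.27) and Hpgd (0.29) no longer passed, 3 of 7 genes did beside 58.2% of all genes, and 20.1% of the genes called were higher instead of 49.6% (37.2% at a common 75th percentile). Ptges also dropped to 0.56 without ASC replicate 3, to 0.41 at a common 75th percentile (5 of 7 passed, 48.5% of all genes) and to 0.27 after quantile normalization, under which Ptgis was 0.46 (4 of 7 passed, 44.5% of all genes).

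Injured FAPs against ASCs compares damaged muscle with adipose tissue, and it shares its libraries with the other comparisons. All 7 genes passed (50.8% of all genes), with Ptger2 and Ptger4 higher (2 of 7, 25.0%) and the 5 synthesis and breakdown genes lower (5 of 7, 25.8%). Scaling to a common library total moved the median of all genes by 0.69 and left 4 of 7, Ptgs1, Hpgd, Ptger2 and Ptger4, beside 66.7% of all genes. It gave 81.3% of the genes called as higher instead of 49.3%, with Ptges at -0.24 and Ptgis at -0.02. After quantile normalization 5 of 7 passed (50.2% of all genes), with Ptgis at -0.46 and Ptgs2 at 0.31 not among them. Ptgis was -0.58 without ASC replicate 1 and did not pass.

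**Figure D2:**
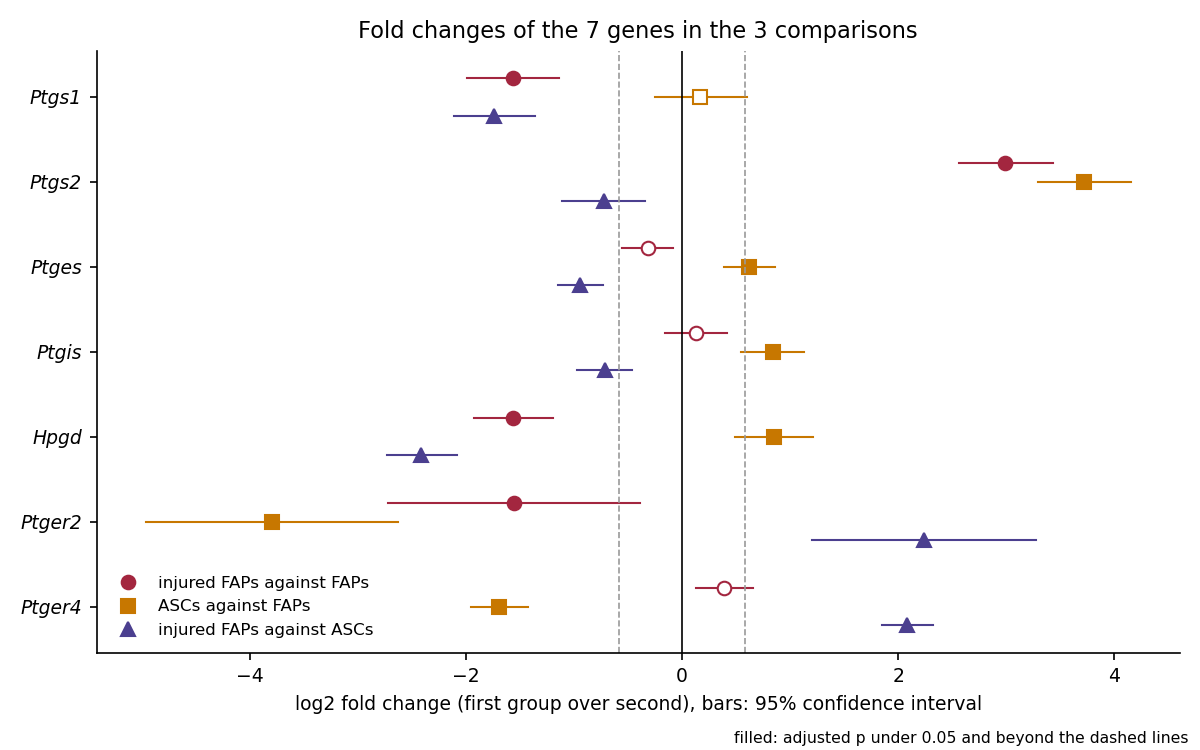
Log2 fold changes of the 7 genes in the 3 comparisons, with 95% confidence intervals from limma; filled symbols passed the adjusted p of 0.05 and the dashed fold lines at 0.58 in either direction. Ptgs2 lies far right against FAPs in both ASCs (3.72) and injured FAPs (2.99), while Ptger4 lies left in ASCs (-1.69).

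To compare levels between genes, reads were divided by exon length. Per kilobase, Ptgs2 was the most abundant of the 7 in ASCs (11443), FAPs (870) and injured FAPs (6906), followed by Ptgis (1315, 727 and 795) and Ptges (745, 482 and 388). In FAPs the distance between Ptgs2 and Ptgis was small, and with the FAP libraries of Ptgs2 at 1003 and 738 per kilobase it is within the spread of Ptgs2. CD31+CD45+ cells had another order, led by Ptgs1 (651) and Ptger4 (315), with Ptgs2 at 45.9.

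Ratios within a library do not depend on its scaling. The ratio of Ptgs2 to Ptgs1 per kilobase was 59.3, 66.6 and 68.8 in ASCs, 7.18 and 4.29 in FAPs and 117, 132 and 146 in injured FAPs. Every injured FAP library lay above every ASC library, and the FAP libraries were the lowest of the 8. In CD31+CD45+ cells the balance was reversed, at 0.0705. Ptges to Hpgd sets a gene of prostaglandin E2 synthesis against a gene of breakdown. This ratio was 2.32, 1.74 and 1.98 in ASCs, 2.05 and 2.67 in FAPs and 5.77, 5.17 and 5.80 in injured FAPs. ASCs and FAPs overlapped here and injured FAPs lay above both. In injured FAPs against FAPs, the log2 fold change was -0.31 for Ptges and -1.56 for Hpgd. These ratios are of RNA, not of prostaglandin made and broken down, and were not tested.

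**Figure D3:**
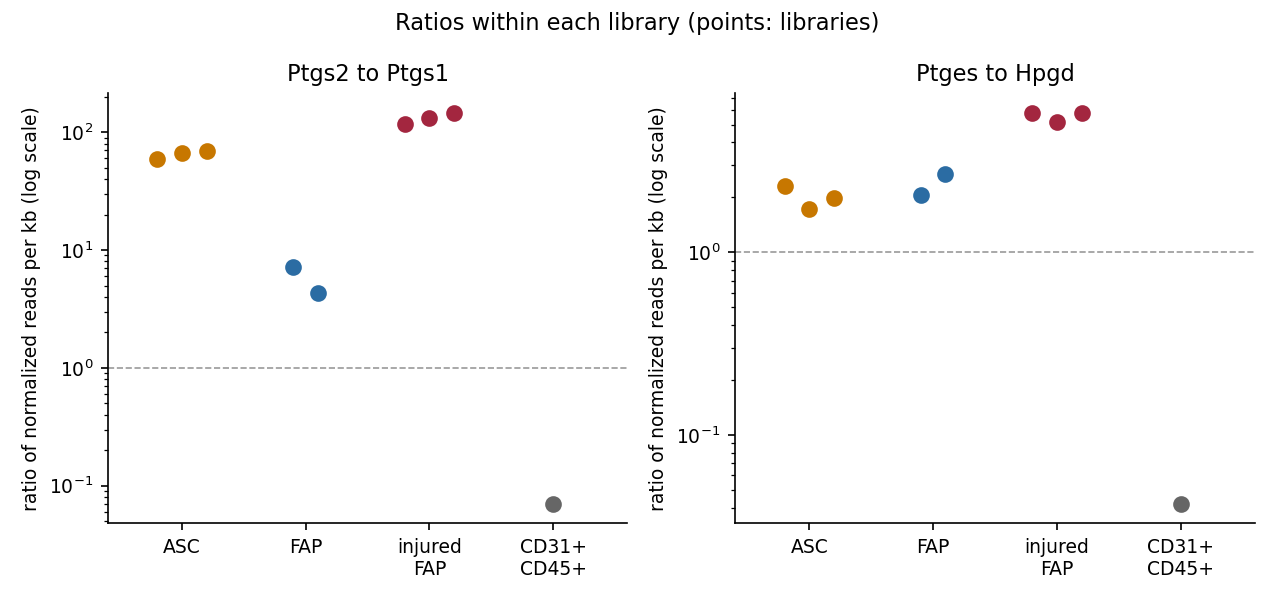
Ratio of normalized reads per kilobase of exon within each library, on log axes, for Ptgs2 to Ptgs1 and for Ptges to Hpgd; each point is a library and the dashed line marks a ratio of 1. Injured FAPs have the highest values in both panels, at 117 to 146 and 5.17 to 5.80.

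The other prostanoid receptors give the context of Ptger2 and Ptger4. Counts on this and the following lists stand beside shares of all genes of 24.9% higher and 27.7% lower in injured FAPs against FAPs, 23.4% and 23.8% for ASCs relative to FAPs, and 25.0% and 25.8% for injured FAPs relative to ASCs. Of 7 in the table, 5 were tested, and Ptgdr and Ptgdr2, the prostaglandin D2 receptors, were at or near 0. The prostacyclin receptor Ptgir measured 693, 537 and 503 in ASCs, 1953 and 1770 in FAPs and 1296, 1344 and 1262 in injured FAPs. It was lower in ASCs than in FAPs by a log2 fold change of -1.70 (adjusted p = 3.9e-06), along with Ptger1, Ptgfr and Tbxa2r, whereas Ptger3 was higher (1.66, adjusted p = 0.000445). So 4 of 5 were lower and 1 of 5 higher in ASCs, with a median of -1.70 compared with 0.00 for all genes, and the counts were the same under the 4 other scalings. In injured FAPs against FAPs only the thromboxane receptor Tbxa2r passed, lower by -2.74 (adjusted p = 1.28e-05). At a common 75th percentile or after quantile normalization 1 more passed. The median of the 5 genes was -0.31, compared with -0.05 for all genes. Tbxa2r measured 427 in CD31+CD45+ cells, compared with means of 116 in FAPs and 16.5 in injured FAPs. Of 8 smooth muscle and pericyte markers, 7 fell as well. Of 11 endothelial markers, 6 fell and 3 were higher, and a link was not tested. The higher ones, Emcn, Cldn5 and Plvap, had values of 0 in FAPs, and these calls are uncertain, like that of Alox5ap below. In injured FAPs against ASCs, Ptger1, Ptgfr and Ptgir were higher and Ptger3 and Tbxa2r lower (median 1.18, with 3 and 1 at a common library total).

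Within the 9 receptor genes, Ptgir made up 63.1% to 73.7% of the summed reads per kilobase in each of the 8 libraries. Ptger4 held 10.2%, 13.7% and 14.2% in ASCs, 12.6% and 13.3% in FAPs and 22.1%, 21.1% and 23.7% in injured FAPs. Injured FAPs stood above the other groups in this share, while ASCs and FAPs overlapped. The part of Ptger2 was largest in FAP replicate 2, at 1.602%.

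**Figure D4:**
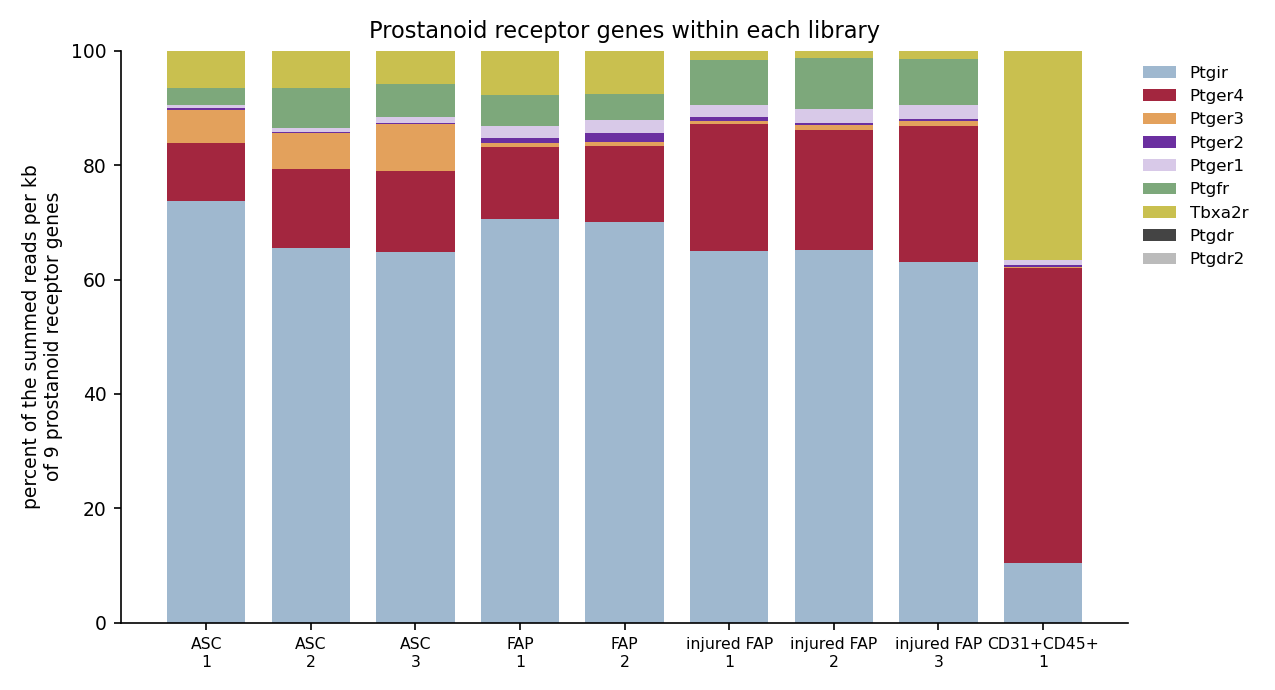
Share of each of 9 prostanoid receptor genes in their summed normalized reads per kilobase, in percent, as stacked bars for each library. Ptgir is the largest part in ASCs, FAPs and injured FAPs, and Ptger4 is widest in injured FAPs (21.1% to 23.7%) and in CD31+CD45+ cells (51.6%).

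Arachidonate release precedes the cyclooxygenases, and 11 of its 13 listed genes were tested. Pla2g4a, the cytosolic phospholipase A2, measured 800, 889 and 1018 in ASCs, 545 and 644 in FAPs and 1423, 1483 and 1551 in injured FAPs, with no overlap. It rose in injured FAPs against FAPs by 1.32 (adjusted p = 1.01e-05), together with Pla2g4c (1.98, adjusted p = 0.000557) and Plaa, which had 694 and 654 in FAPs and 1640, 1707 and 1784 in injured FAPs. Mgll, a lipase that releases arachidonate from a monoacylglycerol, fell by -1.99 (adjusted p = 3.16e-07). It went from 3177 and 3096 in FAPs to 870, 742 and 762 in injured FAPs, and measured 26129 in CD31+CD45+ cells. Of 11 endothelial markers, 6 were lower in this comparison. Another 3 (Emcn, Cldn5 and Plvap) passed as higher from values of 0 in FAPs, and these calls are uncertain. The part of the endothelial markers in the Mgll levels was not tested. Faah, Pla2g5 and Pla2g2e fell as well, so 3 rose and 4 fell (median -0.05, as for all genes). In ASCs against FAPs 4 were higher and 2 lower (median 0.35, with 2 and 2 at a common 75th percentile or library total), and in injured FAPs against ASCs 3 were higher and 2 lower (median -0.29).

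Among the other terminal synthases 6 of 10 were tested. The constitutive prostaglandin E synthases Ptges2 and Ptges3 rose in injured FAPs against FAPs by 0.71 (adjusted p = 0.00195) and 1.32 (adjusted p = 2.17e-06), and Akr1b8 rose by 1.75 (adjusted p = 1.54e-06). Cbr1 fell by -0.74 (adjusted p = 0.000244). Akr1c18, an aldo-keto reductase, was nearly restricted to ASCs, where it measured 1385, 1198 and 1410, compared with 10.46 and 16.0 in FAPs and 10.98, 6.20 and 6.10 in injured FAPs. In ASCs against FAPs 4 of 6 were higher and none lower by limma, edgeR or DESeq2 or at an unadjusted p under 0.05, but 2 were lower and 2 higher at a common library total; in injured FAPs against ASCs 2 were higher and 2 lower. The medians were 0.44, 0.88 and -0.05 in the 3 comparisons, in the order injured FAPs against FAPs, ASCs against FAPs and injured FAPs against ASCs. Ptgds and Hpgds, the prostaglandin D synthases, and the thromboxane synthase Tbxas1 were too low to be tested.

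Transport and breakdown beyond Hpgd was read from 7 genes, all tested. Slco2a1, the transporter that takes prostaglandins up into cells, measured 4278, 5806 and 2220 in ASCs, 509 and 570 in FAPs and 3338, 2695 and 2931 in injured FAPs. FAPs were lowest and ASCs and injured FAPs overlapped, the order also seen for Ptgs2 against FAPs. Compared with FAPs, the log2 ratio reached 2.46 for injured FAPs (adjusted p = 6.07e-05) and 2.82 for ASCs (adjusted p = 2.95e-05). Slco3a1 fell in injured FAPs by -0.89 (adjusted p = 4.61e-05), and the other 5 did not pass there, with a median of 0.19. Between ASCs and FAPs 3 were higher and 1 lower (median 0.44; 1 and 1 at a common library total), and in injured FAPs against ASCs 1 was higher and 2 lower (median -0.29, 2 and 1 at that scaling).

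The lipoxygenase branch uses the same arachidonate for leukotrienes, and 5 of its 13 genes were tested. Alox12 measured 348 and 452 in FAPs, compared with 21.1, 19.3 and 23.9 in ASCs and 36.9, 41.9 and 45.8 in injured FAPs. It was lower in both groups than in FAPs, and measured 716 in CD31+CD45+ cells. Of 8 smooth muscle and pericyte markers, 7 were also lower in each group. Of 11 endothelial markers, 6 were lower in each, while 4 were higher in ASCs and 3 in injured FAPs. Emcn, Cldn5 and Plvap were higher in both groups, from values of 0 in FAPs, and Tek in ASCs only. The calls on Emcn, Cldn5 and Plvap are uncertain for the reason given next for Alox5ap. The part of these marker lists in the Alox12 levels was not tested. Alox5ap and Ltc4s were listed at 0 in both FAP libraries and passed as higher in ASCs and in injured FAPs. Among 4193 genes with at least 1000 normalized reads in CD31+CD45+ cells, zeros were more frequent in FAPs (67 and 65) than in the other groups. The study's methods describe a common processing of the RNA sequencing and do not mention such zeros, so these calls are uncertain. Alox5ap measured 17.3, 108 and 25.9 in injured FAPs, with the highest value in replicate 2 as for the leukocyte markers, whose part was not tested. Mgst3 was lower in both, and Alox12 was the 1 gene that passed between injured FAPs and ASCs, higher by 0.92 (adjusted p = 0.00279), where 4 were higher at a common library total.

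**Figure D5:**
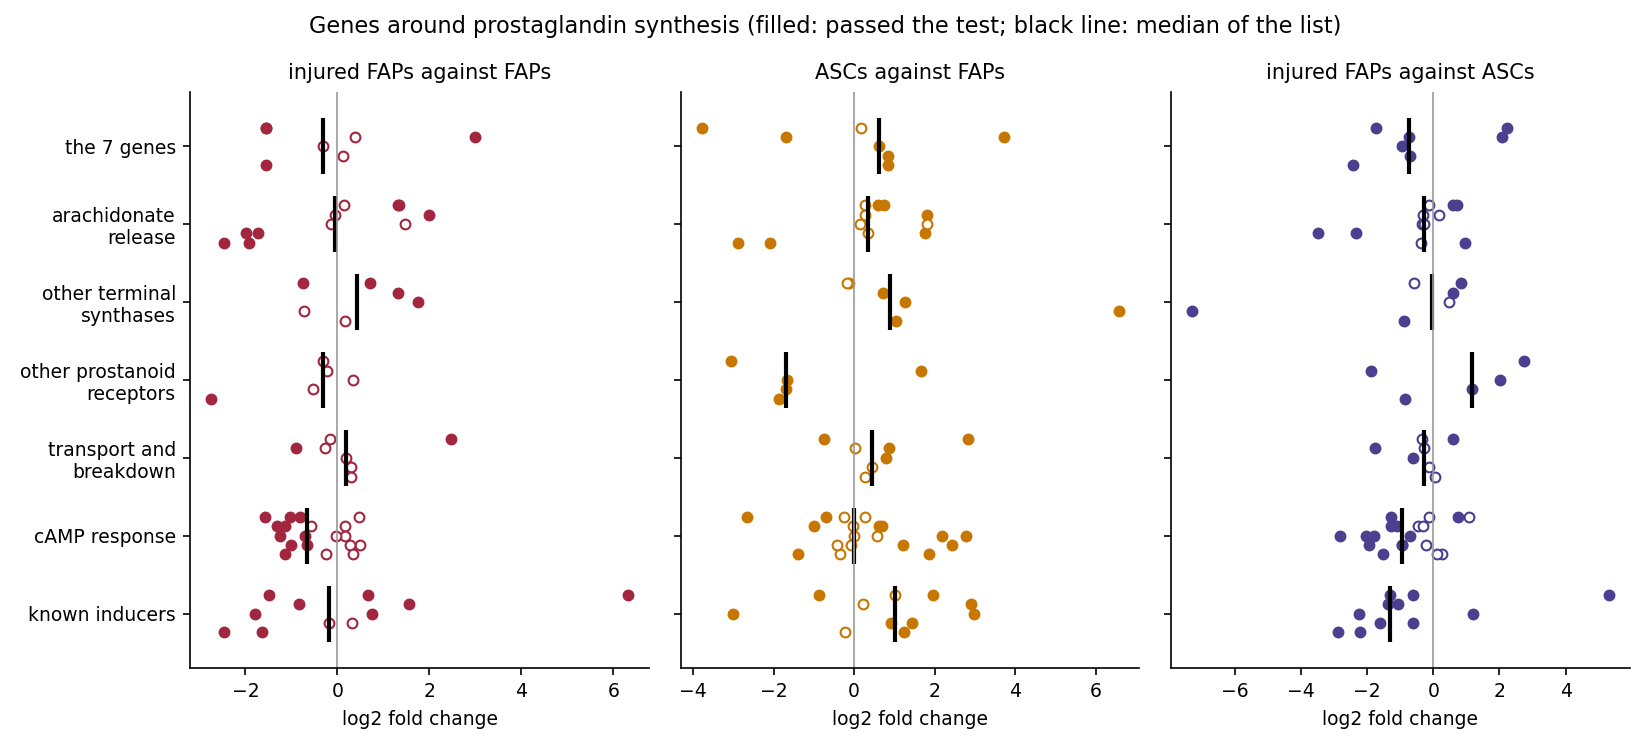
Log2 fold changes of the tested genes of 7 lists in the 3 comparisons; each point is a gene, filled where it passed, and black lines are medians of the lists. Points of most lists, the cAMP response genes included, lie on both sides of 0. The median of the cAMP response genes in injured FAPs against FAPs is -0.66.

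Both receptors signal through cAMP, so genes of its response, coactivators of CREB included, were listed, and 19 of 20 were tested. In injured FAPs against FAPs none was higher by limma, edgeR or DESeq2 or at an unadjusted p under 0.05 (1 with TMM scaling or after quantile normalization and 2 at a common library total) and 10 were lower, with a median of -0.66 compared with -0.05 for all genes. The 10 include the coactivators Crtc1, Crtc2 and Crtc3, and also Fos (-1.13), Dusp1 (-1.02), Rgs2 (-0.66), Pde10a (-1.24) and Ppargc1a (-1.58). Other genes of the list, among them Crem (0.50), Nr4a2 (0.17), Nr4a3 (0.16), Sik1 (0.27) and Gem (0.33), did not pass. Nr4a1, a nuclear receptor induced by cAMP, fell from 64019 and 61771 in FAPs to 38973, 33724 and 34476 (-0.82, adjusted p = 0.000194), and Pde4a, a phosphodiesterase that degrades cAMP, fell by -1.14 (adjusted p = 8.59e-05). In ASCs against FAPs 7 were higher and 4 lower (5 and 8 at a common library total). Crem, a transcription factor of the cAMP response, was higher in ASCs by 2.43 (adjusted p = 3.49e-06), and Fosb measured 276176, 239474 and 307554 in ASCs and 40712 and 38509 in FAPs. Many of these genes also answer to cell isolation and other stress, and their part in the Ptgs2 levels was not tested. In injured FAPs against ASCs 1 was higher and 11 lower (4 and 5 at a common library total).

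Of 16 genes of the cAMP machinery, 3 rose and 7 fell in injured FAPs against FAPs. The falls were 6 adenylyl cyclases, among them Adcy7 (4895 and 5554 in FAPs, 2237, 2188 and 2531 in injured FAPs, -1.17, adjusted p = 3.5e-05), and Rapgef3, a cAMP-activated exchange factor (-3.56, adjusted p = 6.13e-07). Rapgef3 and the cyclase Adcy4 measured 4732 and 12293 in CD31+CD45+ cells, compared with means of 698 and 1389 in FAPs, and 6 of the 11 endothelial markers tested fell as well, among them Kdr (-3.17), Tie1 (-3.34) and Tek (-2.41). Another 3, Emcn, Cldn5 and Plvap, were listed at 0 in FAPs and passed as higher, Cdh5 and Pecam1 did not pass, and a link with Rapgef3 was not tested. The rises were the protein kinase A subunits Prkaca, Prkar2a and Prkar2b. ASCs had 2 of them higher than FAPs and 3 lower (1 and 10 at a common library total), and in injured FAPs against ASCs 4 were higher and 4 lower (8 and 2).

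Known inducers of Ptgs2 and Ptges were split in injured FAPs against FAPs, with 4 of 11 higher and 5 lower (median -0.19). The 4 include Il1b, listed at 0 in both FAP libraries, and its call is uncertain like that of Alox5ap. The interleukin 1 receptor Il1r1 measured 29411, 17613 and 21018 in ASCs, 3391 and 2549 in FAPs and 8724, 8750 and 8406 in injured FAPs. These groups did not overlap and had the order of Ptgs2, with a log2 fold change against FAPs of 1.55 in injured FAPs (adjusted p = 6.26e-05) and 2.91 in ASCs (adjusted p = 1.19e-06). Cebpb, a transcription factor of the C/EBP family, rose by 0.66 (adjusted p = 0.00152) and Nfkb1, an NF-kB subunit, by 0.76 (adjusted p = 0.0116) in injured FAPs. Cebpd, of the same family, fell by -0.83 (adjusted p = 0.0011), as did Jun (-1.49), Atf3 (-1.63) and Tnf (-1.80). Egr1, an immediate early factor, fell as well, from 161561 and 163772 in FAPs to 28857, 35053 and 25086 in injured FAPs (-2.47, adjusted p = 3.2e-06). Between ASCs and FAPs 6 were higher and 2 lower, and in injured FAPs against ASCs 2 were higher and 9 lower (medians 1.01 and -1.30). The ligand Il1b was at 0 in FAPs and at 43.9, 283 and 38.9 in injured FAPs, with the highest value in replicate 2, as for the leukocyte markers, and the part of these in the Ptgs2 levels was not tested.

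Glucocorticoids are known to lower Ptgs2, and 9 genes of their action were tested, whose part in the Ptgs2 levels was not. The list includes the glucocorticoid receptor Nr3c1 and the enzyme Hsd11b1 beside response genes. In injured FAPs against FAPs 1 was higher and 4 were lower (median -0.46), the 4 being Tsc22d3, Dusp1, Nr3c1 and Hsd11b1. The counts were 0 and 4 at a common 75th percentile, and 2 and 3 with TMM scaling or at a common library total. Tsc22d3, a glucocorticoid-induced gene, measured 5495 and 5112 in FAPs, 1412, 1305 and 1542 in ASCs and 952, 749 and 834 in injured FAPs. Anxa1, also induced by glucocorticoids, had another order, with 21661, 20875 and 23196 in ASCs, 4835 and 4422 in FAPs and 6902, 6591 and 7926 in injured FAPs. Hsd11b1, which activates glucocorticoids, was higher in ASCs than in FAPs by 0.80 (adjusted p = 0.000225) and fell in injured FAPs by -0.77 (adjusted p = 0.000247). In ASCs against FAPs 2 were higher and 1 lower (1 and 4 at a common library total, 1 and 3 after quantile normalization), and in injured FAPs against ASCs none was higher by limma, edgeR or DESeq2 or at an unadjusted p under 0.05, and 4 were lower (4 higher and 2 lower at a common library total, 2 higher and 3 lower after quantile normalization).

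The genes most like a member, given here for all but Ptgs2, were taken from 10593 genes with a mean of at least 100, by Pearson's r of log2 levels over the 8 libraries. These r follow the 3 groups rather than 8 independent samples and are descriptions only. For Ptgs1 they were Sult5a1 (r = 0.9972), Fzd5 (r = 0.9968) and Itm2c (r = 0.9938). Ptges was closest to Sox9 (r = 0.9978), Dock4 (r = 0.9968) and Nbea (r = 0.9950), and Ptgis to Cdr2l, Ube2o and Abhd2 (r = 0.9982, 0.9982 and 0.9976). Hpgd was closest to Col5a1, Peli2 and Ndrg4 (r = 0.9966, 0.9962 and 0.9962). For the receptors they were Cbx5, Chek2 and Klhl23 beside Ptger4 (r = 0.9990, 0.9960 and 0.9953) and Mpp2, Rps6ka1 and C1qtnf3 beside Ptger2 (r = 0.9956, 0.9928 and 0.9916). By Spearman's rho, between 8 and 48 genes tied at 1.0000 with a member, so the choice of 3 rests on Pearson's r.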

How the data were processed

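RNA was sequenced from sorted CD31-/CD45-/Sca-1+ cells, ASCs (3 libraries), FAPs (2) and injured FAPs (3), and from CD31+CD45+ cells (1), all on day 1, from C57Bl/6 mice. The values are a signal per gene that the authors deposited as normalized reads, made with HISAT2, Subread's featureCounts and DESeq2 on mm10. Within a tolerance of 0.1, 100.0% of the values proved to be whole reads divided by 1 size factor per library, the unit that the design had assumed. How the size factors were made, the strand setting and the handling of multi-mapped reads are not stated, so genes that overlap on opposite strands are uncertain.

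Of 26214 genes, 6684 were at 0 in all 9 libraries and 24918 were matched to GENCODE for exon lengths. In R 4.3.3, limma 3.58.1 with a trended prior variance was fitted to log2(value + 1) over the 8 libraries with replicates (3 groups, 5 residual degrees of freedom), and p-values were adjusted by Benjamini-Hochberg across the 13601 genes whose mean reached 10. The pipeline was tested on simulated data. As alternatives, genes were also called by edgeR 4.0.16 and DESeq2 1.42.0 on the recovered reads, and the pseudocount, filter, scaling, groups in the fit, replicate number as a block, adjustment and libraries were varied. Counting intervals and the value of 3 reads cover counting error only.

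The 7 members and the gene lists around them (release of arachidonate, other synthases, other receptors, transport and breakdown, lipoxygenases, cAMP response and machinery, glucocorticoid response, inducers, cell type markers) were chosen with earlier results of these data known. Genes named are the members, those of a list that passed in a comparison, had the highest level of their list or were at 0, and the 3 most correlated with a member (not given for Ptgs2). The CD31+CD45+ library entered no test, and 2 columns of the table were empty. A planned comparison of protein sequences was not run because no protein table was available.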

Additional observations from a re-analysis of the deposited data

Results flagged for a closer look

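A pair of genes stood out in the CD31+CD45+ library, which has no replicate and is part of no comparison. Ptgs1 measured 2529.9 normalized reads there, above each of the 8 other libraries, whose highest value was 792 in ASC replicate 1. Ptger4 measured 2092.0 there, above the highest of the other libraries, 947 in injured FAP replicate 3. With a single library, the spread of these levels is not known, and the differences were not tested.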

How the results depend on the processing

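Of the calls on the 7 genes under the alternatives, 418 kept their direction and their call, for which both thresholds count, 17 no longer passed and 3 changed sign. The 418 include Ptger4 and Ptges in injured FAPs against FAPs, below the fold threshold throughout, whose adjusted p ran from 0.00144 to 0.0867 and from 0.0017 to 0.131. Those 3 were Ptgs1 in ASCs against FAPs, at -0.04 with a common 75th percentile and -0.39 with a common library total, and Ptgs2 in injured FAPs against ASCs, at 0.31 after quantile normalization. Scaling to a common library total, chosen after seeing the data, left 3 of 7 passing where ASCs were set against FAPs, and 4 of 7 where ASCs were set against injured FAPs; the cause was not tested. With the replicate block, 3, 6 and 7 members passed for injured FAPs over FAPs, ASCs over FAPs and injured FAPs over ASCs, and Ptger2 in the first was -1.49 (adjusted p = 0.0556, range over alternatives 0.00197 to 0.178). Leaving out each library in turn gave 3 to 4, 5 to 6 and 6 to 7 members, and 6309 to 7370, 5623 to 6688 and 6590 to 7198 of all genes. Where FAPs were left with 1 library, it was assumed to vary like the other groups. A filter at a mean of 50 removes Ptger2, so no value could be given for it. Counts on the lists moved most with a common library total, where 22 of them changed by more than 1.5 times and 32 did not. By length of the longest transcript, 5 of 7 genes kept their place in FAPs and in injured FAPs.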

Other observations

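Exact zeros were unevenly spread over the libraries. Of 752 genes with at least 5000 normalized reads in the CD31+CD45+ library, 21 and 22 were at 0 in the FAP libraries, 1 in each ASC library and 0 in each injured FAP library. Of 4193 genes with at least 1000 there, 67 and 65 were at 0 in FAPs, 16, 19 and 11 in ASCs and 4, 3 and 5 in injured FAPs. Over all genes the numbers at 0 were closer, with 10084 and 9717 in FAPs, 10106, 9941 and 9909 in ASCs and 9592, 9490 and 9502 in injured FAPs.

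The remaining marker lists had these summed levels, in the order ASCs, FAPs, injured FAPs. Neutrophil markers summed to 31.6, 9.06 and 25.1, to 6.66 and 14.1, and to 106, 256 and 138. Mast cell markers summed to 19.8, 53.2 and 42.7, to 0 in both FAP libraries, and to 18.8, 53.5 and 12.2. Platelet markers summed to 656, 848 and 692, to 418 and 565, and to 361, 539 and 354, with Itga2b the most abundant in each. For adipocyte markers the sums were 344, 333 and 354, then 55.2 and 64.9, then 13.3, 18.6 and 3.81. Muscle fiber markers gave 157, 108 and 144, then 718 and 851, then 248.7, 243 and 196. Satellite cell markers gave 5.27, 5.66 and 2.51, then 73.2 and 148, then 52.6, 39.5 and 35.9. For mesothelial markers the sums were 357, 58.9 and 128, then 52.3 and 63.0, then 76.9, 63.6 and 83.1, and for Schwann cell markers 1207, 913 and 836, then 1053 and 1824, then 670, 398 and 674.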
